A study of Mus musculus with 6 samples.

Results

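The 10 genes described here are grouped as immediate early genes, a name for the first genes that a cell switches on after a growth signal or a stress. How fast each of the 10 is induced was not tested. They were chosen by name from a table of 20263 genes: Fos, Fosb, Fosl1, Fosl2, Jun, Junb, Jund, Atf3, Egr1 and Ier3. Each of the 10 was measured by 1 probe set. Ier3 encodes a small membrane-associated protein that regulates cell survival and is no transcription factor, unlike the other members.

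Immediate early genes need no new protein for their induction, because the factors that switch them on, among them the serum response factor with its Elk partners and CREB, are already present and are activated by kinases. Proteins of the Fos family pair with proteins of the Jun family through a leucine zipper to form AP-1, which binds DNA in the control regions of genes for growth, matrix remodelling and inflammation. Egr1 encodes a zinc finger factor of the same rapid response, and Atf3 a stress-induced zipper factor that can pair with Jun proteins. In the rat prostate, Fos is known to be induced while the gland regresses after castration.

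The samples were prostates in androgen-driven regrowth from 3 wild-type and 3 Gli1-/- mice. All of them, the controls included, had been castrated at 8 weeks of age, given a testosterone pellet under the skin 2 weeks later and sampled at 10 weeks of age, after 3 days of testosterone. RNA of the ventral and dorsolateral lobes of a single animal made up each sample, so that every value mixes the epithelium with stroma, blood vessels and immune cells. The sources used here give neither the Gli1 allele nor the strain. Values are log2 intensities of an Affymetrix array, on which a difference of 1 stands for a doubling, and mice are numbered 1 to 3 in each genotype as the labels number them.

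The tissue label was borne out by prostate genes: Hoxb13, Pbsn and Tgm4 stood between the 98.1 and 99.9 percentiles of all genes. The Gli1 probe set read 6.28, 6.48 and 6.51 in the wild-type mice and 6.34, 6.27 and 6.29 in the mutants (difference -0.12, limma adjusted p = 0.732). Where this probe set lies relative to the part that the allele removes is not known here, and the reading does not bear out the genotype labels. Wild-type mouse 3 and mutant 2 stood apart in a list of 7 seminal vesicle genes, with scores of 1.59 and 1.08 against -0.30 or lower in the other 4 mice. In mutant 2 the score came from Svs2, Svs4, Svs5 and Pate4, while Svs3a, at 3.50, was the lowest of the 6 mice. A score is the mean of a list's log2 values after each gene is centred on its mean over the 6 mice. The widest differences are therefore also given without these 2 mice.

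Promoters are shown for the 2 members with the widest genotype difference, Fosl2 and Ier3, and for Fos, Jun and Atf3, whose control elements are textbook examples. The letters run 5′ to 3′ on the gene's own strand and end 1 base before the transcript start. They come from RefSeq, mouse build GRCm38.p6. Capitals mark motifs found by a letter search, named after the sequences.

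Fosl2 (chr5:32136222-32136471, plus strand): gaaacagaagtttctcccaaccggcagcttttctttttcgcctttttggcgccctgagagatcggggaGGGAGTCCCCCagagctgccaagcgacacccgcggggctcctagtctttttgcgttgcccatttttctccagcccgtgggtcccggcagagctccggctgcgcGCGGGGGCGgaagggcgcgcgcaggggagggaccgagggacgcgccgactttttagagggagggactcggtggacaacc
Ier3 (chr17:35821463-35821712, plus strand): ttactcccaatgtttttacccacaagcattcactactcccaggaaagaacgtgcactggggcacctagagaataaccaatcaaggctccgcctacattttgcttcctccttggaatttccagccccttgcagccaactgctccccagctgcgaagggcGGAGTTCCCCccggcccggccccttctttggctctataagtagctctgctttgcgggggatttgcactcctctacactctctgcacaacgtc
Fos (chr12:85473790-85473889, plus strand): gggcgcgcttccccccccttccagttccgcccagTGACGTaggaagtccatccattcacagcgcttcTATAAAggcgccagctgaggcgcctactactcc
Jun (chr4:95052223-95052322, minus strand): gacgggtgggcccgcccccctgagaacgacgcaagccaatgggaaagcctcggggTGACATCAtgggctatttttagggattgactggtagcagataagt
Atf3 (chr1:191183334-191183433, minus strand): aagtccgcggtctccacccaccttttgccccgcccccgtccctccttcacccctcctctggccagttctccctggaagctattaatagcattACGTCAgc

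In Fosl2 the capitals mark overlapping matches, on both strands, to the kappaB site, the element bound by NF-kappaB. They also mark an EGR site (GCGNGGGCG), the element bound by Egr1. Ier3 holds a kappaB site. Fos holds the shortened cyclic AMP response element TGACGT and a TATA box (TATAAA), Jun the mixed AP-1 and CRE site TGANNTCA, and Atf3 the shortened element read on the other strand. Windows of 250 bases before to 50 after the start were searched on both strands for 8 of the 10 members. Fosl1 and Egr1 had no window and were not searched. The background was given by 32851 windows of the same length. A kappaB site lay in 4 of the 8 windows (Fos, Fosb, Fosl2 and Ier3) and in 4.51% of all windows. The EGR site lay in 2 of the 8 (Fosb and Fosl2) and in 5.55% of all. TGANNTCA, which also covers the full CRE, lay in the windows of Jun and Jund and in 14.1% of all, and TGACGT, which also lies within the full CRE, in those of Fos and Atf3 and in 7.51% of all. The letters TATAAA were found for Fos, from -33 to -28 before the start, and for Junb, against 13.6% of all. The Junb match lay at bases 1 to 6 after the start. The full CRE (TGACGTCA), the AP-1 site TGAGTCA, the CArG box of the serum response factor, the STAT site TTCNNNGAA and the Gli site TGGGTGGTC were found in 0 of the 8 windows, and in 1.79%, 5.2%, 1.63%, 8.3% and 0.253% of all windows. The shortened element was added to the search after the windows had been read. A match describes letters in the window and shows no binding. Elements more than 250 bases before the start were not searched, so 0 matches do not show that a gene lacks the element.

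Across genotypes, Fosl2, Ier3 and Egr1 had the widest differences of the 10, each higher in all 3 mutants, and none passed the test over all genes. The test was limma's moderated fit over the whole table, and a gene was called at a Benjamini-Hochberg adjusted p under 0.05. It called 0 of the 10 members and 0.0197% of all genes (0.00987% in each direction). At an unadjusted p under 0.05 and higher in the mutants were 3 of the 10, against 5.93% of all genes. All 3 mutants lay above all 3 wild types in 5 of the 10 (Fosl2, Ier3, Egr1, Fos and Jun), against 8.34% of all genes, and all 3 lay below in 0, against 6.01%. The difference was positive in 9 of the 10, against 48.5% of all genes, and its median was 0.11 against 0.00 over all genes. That median was 0.07 without wild-type mouse 1 or without mutant 1 (8 positive in each) and 0.20 without wild-type mouse 3. The members were chosen with earlier results of these data known and share the same 6 mice, so these counts describe the members and are no test.

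**Figure D1:**
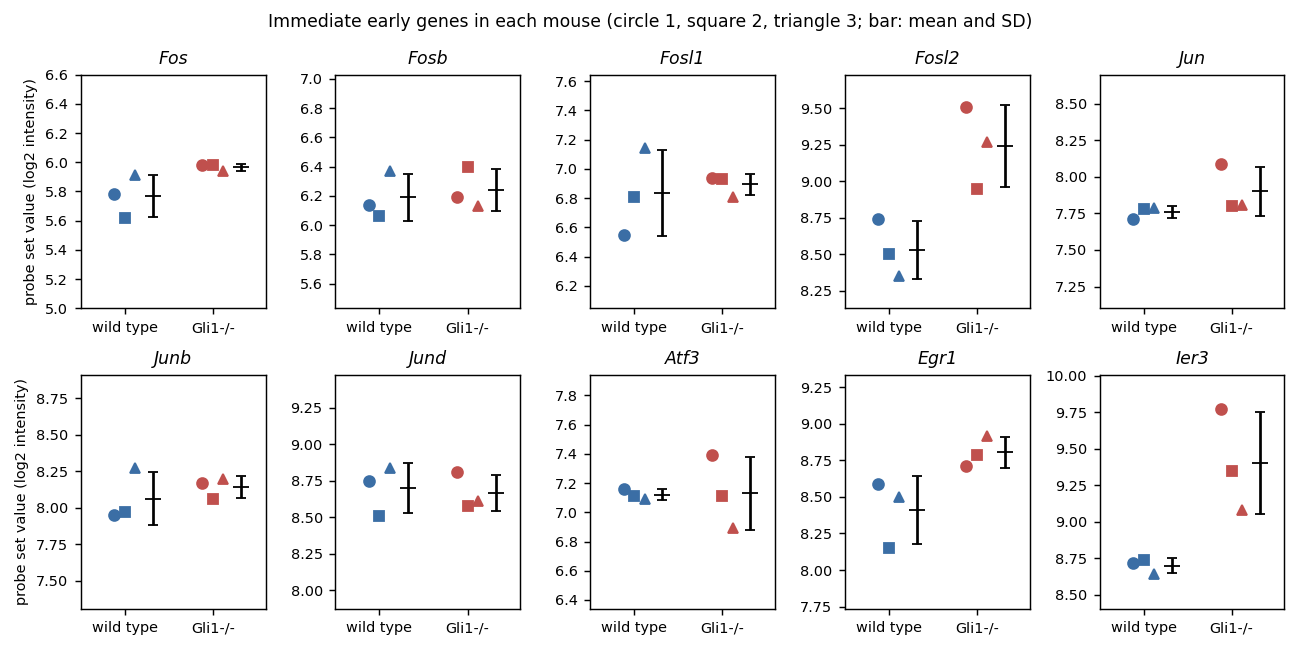
Log2 probe set values of the 10 genes (vertical axes, each spanning the same range of 1.6) in each of 3 wild-type (blue) and 3 Gli1-/- (red) mice, with the mean and SD at the right of each group. The groups separate by 0.339 in Ier3 and 0.211 in Fosl2, by 0.119 in Egr1, and by only 0.0344 in Fos and 0.00869 in Jun.

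The Fos family held one member with a wide difference and 3 with small ones. Fosl2, which encodes Fra-2, an AP-1 subunit that lacks the strong activation domain of Fos, read 8.74, 8.50 and 8.35 in wild-type mice 1 to 3. In mutants 1 to 3 it read 9.51, 8.95 and 9.27. Every mutant was above every wild-type mouse, and mutant 2, the lowest mutant, was 0.211 above wild-type mouse 1. The group means were 8.53 ± 0.20 and 9.24 ± 0.28 (SD, n = 3), a 1.64-fold difference (log2 difference 0.71, 95% interval 0.33 to 1.10, limma adjusted p = 0.221). That difference was 0.769 without wild-type mouse 3 and mutant 2, and lay between 0.583 and 0.86 with any single mouse left out.

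Fos itself, the founding member of the family, read 5.78, 5.62 and 5.91 in the wild-type mice and 5.98, 5.98 and 5.94 in the mutants. The mutants were nearly equal and the wild types spread below them, with wild-type mouse 2 lowest. The difference of 0.20 (95% interval -0.04 to 0.44, limma adjusted p = 0.562) fell to 0.126 without wild-type mouse 2. The Fos probe set stood at the 29.8 percentile of all genes, in the dim range. What this low level means for the size of the Fos difference was not tested.

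Fosb, whose protein pairs with Jun as Fos does, read 6.14, 6.06 and 6.37 in the wild-type mice and 6.19, 6.40 and 6.13 in the mutants, with mice of both genotypes interleaved (difference 0.05, SE 0.12). Fosl1, which encodes Fra-1, read 6.55, 6.81 and 7.14 in the wild-type mice and 6.94, 6.93 and 6.81 in the mutants. All mutants lay inside the wild-type range, and the difference was 0.06 (SE 0.15). Both genes changed sign when a single mouse was left out: Fosb to -0.0302 without mutant 2 and -0.0158 without wild-type mouse 2, and Fosl1 to -0.0811 without wild-type mouse 1. The wild-type order of Fosl1, with mouse 1 lowest and mouse 3 highest, was also that of genes of its level. Median centred values were -0.11, -0.03 and 0.11 over genes between the 25 and 50 percentiles, where Fosl1 stood (45.2), and -0.09, -0.02 and 0.11 over the dimmest 25% of genes. In mutants 1 to 3 the medians of both sets lay between -0.02 and 0.01, and their part in the wild-type spread of Fosl1 was not tested.

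Jun family members, the partners without which Fos proteins cannot bind DNA, had small differences between genotypes, with intervals that included 0. Jun, the main growth-promoting partner, read 7.71, 7.78 and 7.79 in the wild-type mice and 8.09, 7.80 and 7.81 in the mutants. Mutant 1 stood above the other 5 mice, which lay within a narrow band. The difference of 0.14 (95% interval -0.12 to 0.40, limma adjusted p = 0.72) fell to 0.0452 without mutant 1.

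Junb, which can oppose Jun in growth control, read 7.95, 7.97 and 8.27 in the wild-type mice and 8.17, 8.06 and 8.20 in the mutants (difference 0.08, SE 0.12). Its difference was 0.0279 without wild-type mouse 1, 0.0384 without wild-type mouse 2 and 0.189 without wild-type mouse 3, the highest of the 6. Jund, the member that is present at a steadier level in most cells, read 8.75, 8.51 and 8.84 in the wild-type mice and 8.81, 8.58 and 8.61 in the mutants. It was the only member of the 10 with a negative difference, -0.03 (SE 0.12), and that difference turned to 0.0399 with wild-type mouse 3 left out and to 0.0128 with mutant 2 left out. The 95% intervals of Junb and Jund, -0.19 to 0.36 and -0.31 to 0.25, bound what these 6 arrays allow.

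Atf3 had nearly equal group means and unequal spreads. Wild-type mice read 7.16, 7.11 and 7.09, and mutants read 7.39, 7.11 and 6.89, so the highest and the lowest of the 6 were both mutants. The group means were 7.12 ± 0.03 and 7.13 ± 0.25 (SD, n = 3), and the difference was 0.01 (95% interval -0.30 to 0.32). It was -0.12 without mutant 1 and -0.00359 without wild-type mouse 3, and the difference in spread was not tested.

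Egr1, which encodes a factor known for its high level in prostate cancer, read 8.59, 8.15 and 8.50 in the wild-type mice and 8.71, 8.79 and 8.92 in the mutants. The groups did not overlap, and wild-type mouse 2 was the lowest by a wide margin. Group means were 8.41 ± 0.24 and 8.80 ± 0.10 (SD, n = 3), a 1.31-fold difference (log2 difference 0.39, 95% interval 0.07 to 0.71, limma adjusted p = 0.388). The difference shrank to 0.257 without wild-type mouse 2, was 0.481 without wild-type mouse 1, and was 0.444 without wild-type mouse 3 and mutant 2.

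Ier3 read 8.72, 8.74 and 8.64 in the wild-type mice and 9.77, 9.35 and 9.08 in the mutants. The wild types were nearly equal, while the mutants spanned 0.69, with mutant 1 highest and mutant 3 closest to wild type. Group means were 8.70 ± 0.05 and 9.40 ± 0.35 (SD, n = 3), a 1.62-fold difference (log2 difference 0.70, 95% interval 0.31 to 1.09, limma adjusted p = 0.225). Without mutant 1 the difference was 0.517, and without wild-type mouse 3 and mutant 2 it was 0.691.

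**Figure D2:**
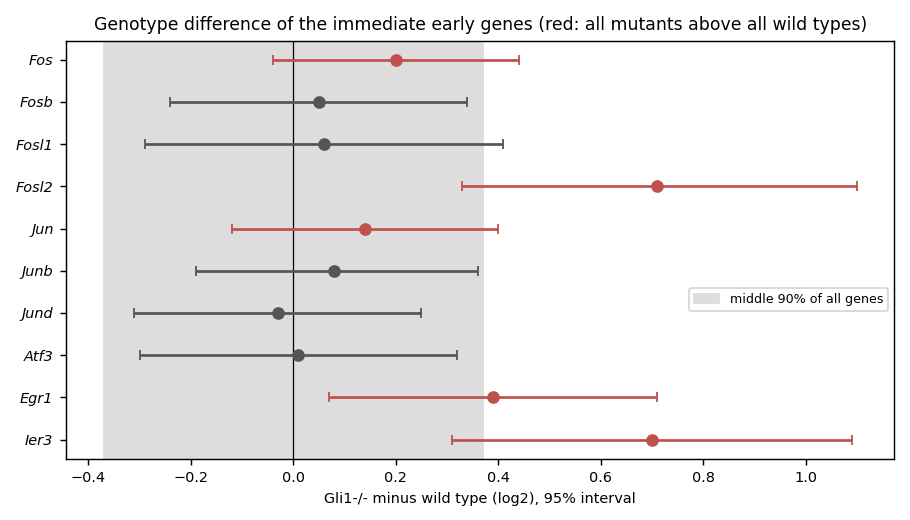
Gli1-/- minus wild-type difference (horizontal axis, log2) of each gene with its 95% interval from the limma fit, over 3 mice per genotype; the grey band, from -0.37 to 0.37, holds the middle 90% of all genes' differences. Fosl2 (0.71), Ier3 (0.70) and Egr1 (0.39) lie beyond the band, and the other 7 members lie within it.

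The same mice stood at the ends of the range in several members. Mutant 1 was the highest of the 6 mice in 5 members (Fos, Fosl2, Jun, Atf3 and Ier3), and wild-type mouse 3 in 3 (Fosl1, Junb and Jund). Wild-type mouse 2 was the lowest in 4 members. Scores of the 10 members were -0.11, -0.20 and -0.03 in the wild-type mice and 0.23, 0.07 and 0.04 in the mutants. Whether the genotype difference itself differed between members, Fosl2 and Fosl1 for example, was not tested.

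Spread between mice of 1 genotype was near that of other genes. The median SD within genotype was 0.167 over the 10 members and 0.152 over all genes. Fosl2 and Ier3 were the most variable, with SDs of 0.24 and 0.25 at the 80 and 81.2 percentiles of all genes, and Fos the least, with 0.10 at the 24.4 percentile. In Ier3, Atf3 and Jun the wild types were the tighter group, with SDs of 0.05, 0.03 and 0.05 against 0.35, 0.25 and 0.16. In Fos, Fosl1, Junb and Egr1 the mutants were the tighter group, with SDs of 0.02, 0.07, 0.07 and 0.10 against 0.14, 0.29, 0.18 and 0.24.

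**Figure D3:**
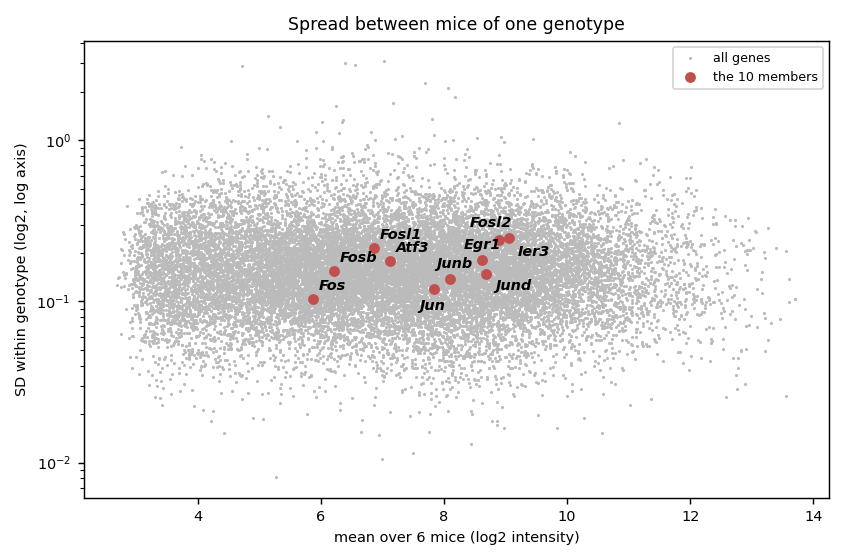
SD within genotype (vertical axis, log2 units on a log scale) against the mean over the 6 mice (horizontal axis, log2 intensity) for all 20263 genes in grey and the 10 members in red. The members lie inside the cloud of all genes, from 0.10 in Fos to 0.25 in Ier3.

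Likeness to a member was measured as the mean absolute difference between centred log2 values over the 6 mice. Nearest to Fos were Ins2, Arl4c and Kcne1l, at 0.0137, 0.0172 and 0.0187. Ins2, the insulin gene, is not known as a prostate transcript, and its values, from 4.68 in wild-type mouse 2 to 5.07 in mutant 2, lay in the dim range. For the other members the neighbours were looked up after their values had been seen. Nearest to Fosl2 were Cxadr, a cell junction receptor gene (0.0482), Map3k1, which encodes a kinase upstream of the Jun kinases (0.071), and the villin-like gene Vill (0.0731). Map3k1 read 8.07, 7.80 and 7.57 in the wild-type mice and 8.65, 8.22 and 8.37 in the mutants (limma adjusted p = 0.27). Nearest to Ier3 were Cd44, a hyaluronan receptor gene (0.0489), the complement gene C3 (0.0659) and Myf6 (0.0866). Cd44 read 9.52, 9.34 and 9.33 in the wild-type mice and 10.53, 10.10 and 9.81 in the mutants, the same order of mutants as in Ier3. The 3 nearest to Egr1 were Chst14, Fam229a and Creb3l1, at 0.0417, 0.0536 and 0.0552. Neighbours of the remaining members are not described.

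Of the wider immediate early programme, whose lists share some genes, 48 further genes were measured, and 0 were called in either direction. At an unadjusted p under 0.05, 3 were higher and 2 lower, against 5.93% and 4.58% of all genes. The difference was positive in 36 of the 48, with a median of 0.13 beside 0.00 over all genes. That median depended on mutant 1, without which it was 0.03 with 28 of 48 positive. Phlda1, an early gene that can favour or restrain cell death, read 9.99, 9.90 and 9.68 in the wild-type mice and 10.72, 10.45 and 10.41 in the mutants (difference 0.67, SE 0.13, limma adjusted p = 0.152). Nfkbia, which encodes the NF-kappaB inhibitor and is itself induced by NF-kappaB, differed by 0.28 (SE 0.10), also higher in all 3 mutants. Gadd45g, a growth arrest gene, read 8.51, 8.49 and 8.66 in the wild-type mice and 7.91, 8.00 and 8.17 in the mutants (difference -0.53, SE 0.11, limma adjusted p = 0.188). The orphan receptor gene Nr4a2 differed by -0.45 (SE 0.17) with overlapping groups. The closest relatives of Egr1 overlapped between genotypes: Egr2 differed by 0.13, Egr3 by -0.05 and Egr4 by 0.01. Ier2 (-0.06), Dusp1 (0.07), Btg2 (0.07) and Myc (0.06), which are often induced together with Fos, overlapped as well. These 7 genes were picked after their values had been seen.

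Regulators that act upstream gave 0 calls among 27 genes, and their median difference was 0.02, which turned to -0.02 without wild-type mouse 3 and was 0.06 without wild-type mouse 1. Elk3, a partner of the serum response factor, differed by 0.30 (SE 0.11, higher in all 3 mutants) and the coactivator gene Mrtfa by 0.28 (SE 0.12). Mapk8, which encodes a Jun kinase, differed by -0.27 (SE 0.13) and the kinase gene Braf by -0.17 (SE 0.11), each with overlapping groups. Among 14 feedback inhibitors of the same kinases and of Egr1, 0 were called, 11 were positive and the median was 0.13. Errfi1, which restrains the EGF receptor, and Spry1, which restrains receptor kinase signalling, differed by 0.22 (SE 0.09) and 0.23 (SE 0.11), both higher in all 3 mutants. In the other direction Spred1 (-0.06) and Dusp5 (-0.07) overlapped.

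Other zipper factors that can pair with Fos, Jun or Atf3 differed in both directions, and 0 were called. Of 22 listed, 21 were measured, and their median was -0.03 with 9 positive. Without wild-type mouse 3 the median turned to 0.07 with 13 positive, and without wild-type mouse 1 it was -0.07. Nfe2l2, the master factor of the oxidative stress response, read 10.41, 10.20 and 10.01 in the wild-type mice and 10.71, 10.59 and 10.78 in the mutants (difference 0.49, SE 0.13, limma adjusted p = 0.254). Ddit3, a factor of the endoplasmic reticulum stress response, read 7.59, 8.12 and 8.00 in the wild-type mice and 7.32, 7.35 and 7.38 in the mutants (difference -0.55, SE 0.14, limma adjusted p = 0.255). Its upstream activator Atf4 differed by -0.35 (SE 0.13), lower in all 3 mutants, and Cebpb by 0.31 (SE 0.14) with overlapping groups.

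Genes known as AP-1 targets gave 0 calls among 27, of which 7 were higher and 1 lower at an unadjusted p under 0.05, against 5.93% and 4.58% of all genes. The difference was positive in 21, with a median of 0.12, and single mice moved the median to 0.04 (17 positive, without mutant 1), 0.21 (without mutant 2) and 0.28 (without wild-type mouse 3). Timp1, a metalloprotease inhibitor gene, read 7.55, 8.05 and 7.78 in the wild-type mice and 8.49, 9.51 and 8.72 in the mutants (difference 1.12, SE 0.26, limma adjusted p = 0.221). Cd44 differed by 0.75 (SE 0.18, limma adjusted p = 0.221). The metallothionein gene Mt1 was lower in all 3 mutants (-0.32, SE 0.10), and the gelatinase gene Mmp9 differed by -0.33 (SE 0.16) with overlapping groups. The widest difference of the list, in the osteopontin gene Spp1 (1.61, SE 1.09), came with the widest spread among those named and overlapping groups, and Spp1 was picked after its values had been seen. Of 18 genes known as Egr1 targets 0 were called, 11 were positive and the median was 0.11, or 0.07 without mutant 1 or without wild-type mouse 2. Icam1, an adhesion gene that NF-kappaB also induces, read 8.14, 8.04 and 7.95 in the wild-type mice and 8.93, 8.33 and 8.91 in the mutants (difference 0.68, SE 0.17, limma adjusted p = 0.242). Tnf differed by 0.40 (SE 0.15), and Sod1 by -0.22 (SE 0.12), both with overlapping groups.

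**Figure D4:**
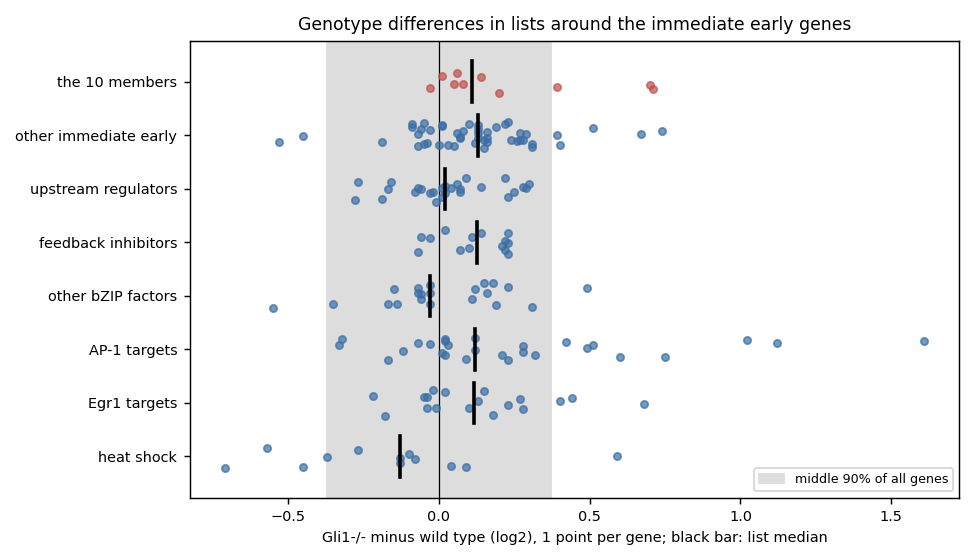
Gli1-/- minus wild-type differences (horizontal axis, log2), 1 point per gene, for the 10 members and 7 related lists, with the list median as a black bar and the middle 90% of all genes as a grey band. Medians lie between -0.13 in the heat-shock list and 0.13 in the further immediate early genes, and single genes of the AP-1 target list reach 1.61.

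Heat-shock genes, which answer to protein damage, were mostly lower in the mutants: 3 of 12 were positive, the median was -0.13, and 0 were called. Single mice moved that median to -0.06 (without wild-type mouse 3) and -0.22 (without wild-type mouse 1). The smallest p of the list belonged to a gene that was higher in all 3 mutants, the small chaperone gene Cryab (0.59, SE 0.13, limma adjusted p = 0.221), which was picked after its values had been seen. Their scores were -0.15, 0.11 and 0.31 in the wild-type mice and -0.18, -0.07 and -0.01 in the mutants, with wild-type mouse 1 inside the mutant range.

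Several cell type marker lists stood higher or lower in the mutants beside the members. In whole lobes, fewer cells of a type and less RNA per cell cannot be told apart. All 11 measured macrophage genes were positive, with scores from -0.51 to -0.14 in the wild-type mice and from -0.01 to 0.53 in the mutants. Basal epithelial genes were positive in 7 of 8 (scores -0.30 to 0.07 against -0.06 to 0.39) and fibroblast genes in 7 of 9 (-0.24 to -0.04 against -0.03 to 0.48). Endothelial genes were positive in 8 of 8 (-0.19 to -0.03 against -0.05 to 0.25), lymphocyte genes in 7 of 9 (-0.21 to -0.08 against 0.03 to 0.25) and striated muscle genes in 8 of 8 (-0.75 to 0.10 against -0.31 to 0.91). Smooth muscle genes were negative in 9 of 9 (-0.01 to 0.47 against -0.43 to -0.05) and cell cycle genes in 11 of 11 (-0.06 to 0.49 against -0.63 to 0.22). Mutant 1, the highest mouse in Fosl2 and Ier3, also had the highest score of the basal, fibroblast, endothelial and striated muscle lists and the lowest of the smooth muscle and cell cycle lists. Without mutant 1 the median difference of the fibroblast list fell from 0.36 to 0.20 (5 of 9 positive). That of the striated muscle list fell from 0.59 to 0.41 (6 positive), and that of the cell cycle list moved from -0.45 to -0.22 (9 negative). The basal and endothelial medians were then 0.20 and 0.16, each with 7 of 8 positive, and the smooth muscle median was -0.36 (8 negative). The macrophage median was 0.57, with all 11 positive. Neutrophil genes stood at a median percentile of 17.1 among all genes, with scores from -0.26 to 0.09 in the wild-type mice and -0.07 to 0.24 in the mutants. The red blood cell genes were negative in 4 of 4 (scores -0.17 to 0.79 against -0.66 to 0.02), luminal genes positive in 7 of 11 (0.01 to 0.05 against -0.05 to 0.00), urothelial genes in 2 of 6 and seminal vesicle genes in 2 of 7. The part of these markers in the differences of Fosl2, Ier3 and Egr1 was not tested.

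**Figure D5:**
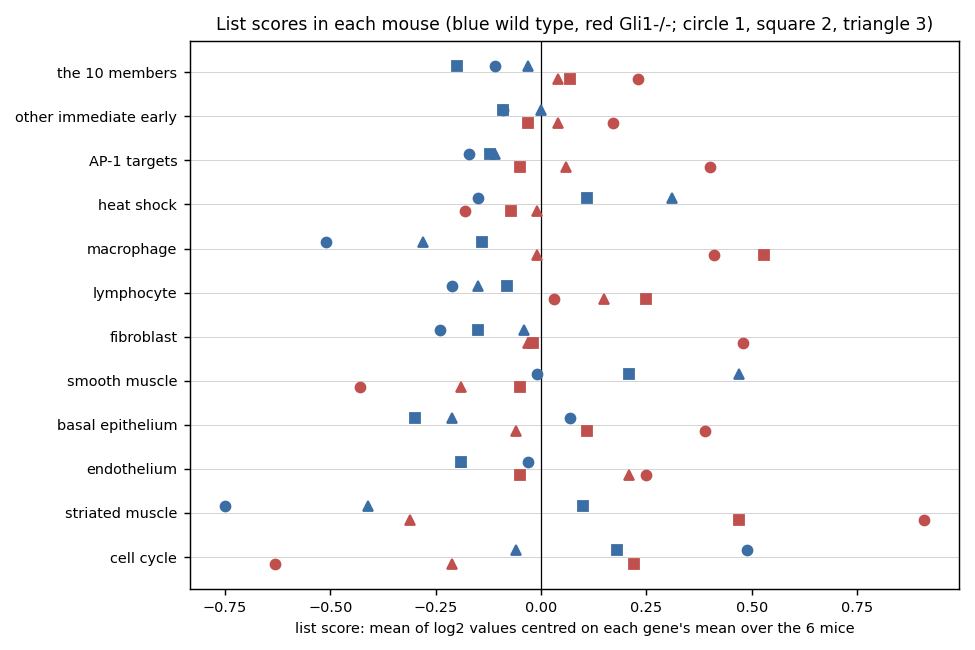
Scores (horizontal axis, mean centred log2 value) of the members, 3 related lists and 8 cell type or cell cycle lists in each of 3 wild-type (blue) and 3 Gli1-/- (red) mice. Mutant 1 (red circle) lies at 0.23 in the members, 0.48 in the fibroblast list and 0.91 in the striated muscle list, the highest of the 6 mice in each.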

How the data were processed

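Expression was measured in 6 mouse prostates, 3 wild type and 3 Gli1-/-, on a 1-colour Affymetrix array. Per the labels' protocols, RNA was isolated with an RNeasy Plus Mini kit and labelled with biotin after the Ambion WT Expression kit. The authors deposited log2 intensities, 1 column per mouse. The submitters' processing notes list Partek and RMA and state no role or version for either. These sources do not state the array model, the probe-set definition or the build.

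The deposited values were used unchanged. Of 32025 probe sets, 25343 (79.1%) matched 1 gene of a RefSeq table (GRCm38.p6) and gave 20263 genes, each represented by its brightest probe set. Genotypes were compared by a two-sided moderated fit without covariates (limma 3.58.1, R 4.3.3), with Benjamini-Hochberg adjustment over all genes. The procedure was also run on simulated data, and how often it recovered differences as small as those of the members is not reported here. Replicates are separate mice, and the number of arrays limits the precision (median SE 0.123). The members and lists were chosen with earlier results of these data known. Named from each related list were up to 2 genes per direction with the smallest unadjusted p, and 3 neighbours of Fos; a gene so chosen is left out where it is not reported here. The alternatives tried were a replicate block, a variance trend with intensity, array weights, quantile normalization, median centring, leaving out the dimmest 25% of genes, averaged probe sets and single mice left out.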

Additional observations from a re-analysis of the deposited data

How the results depend on the processing

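Fosl2, Ier3, Egr1, Fos, Jun and Junb stayed positive under the 10 alternatives that can move a member's difference (array weights, both normalizations and the mice left out). The replicate block, variance trend, dim-gene filter and averaged probe sets leave each difference as it is by construction and can change only its p. The fit with array weights rests mainly on wild-type mouse 2 and mutant 3 (weights 7.22 and 2.26). It called 4680 of all 20263 genes and 4 of the 10 members, in place of 4 and 0. Those members were Fosl2 at 0.78 (limma adjusted p = 0.00817), Egr1 at 0.664 (0.0109), Fos at 0.318 (0.0193) and Ier3 at 0.551 (0.0278). In the other 13 alternatives 0 members were called. Array weights turned Jund to 0.125 and Atf3 to -0.0671, and Jund was 0.0827 without wild-type mouse 3 and mutant 2, a choice made after seeing the data. There the members' median was 0.218. With single mice left out, differences ran from -0.0302 to 0.143 in Fosb, -0.0811 to 0.212 in Fosl1, -0.126 to 0.0399 in Jund and -0.12 to 0.13 in Atf3. Single mice left out also gave 3 to 17 called genes, a median of the members from 0.0716 to 0.2, and a median of the further immediate early genes from 0.0338 to 0.153. The replicate block called 25 genes and no member (Fosl2 0.715, adjusted p = 0.11). Same-numbered mice had deviations that correlated across genes at 0.16, 0.25 and -0.15, and differently numbered mice at -0.32 to 0.25. With 3 mice per genotype these values cannot decide whether the numbers mark pairs. The main fit took no pairs. Median centring, leaving out dim genes and leaving out the 2 mice together called 8 genes each. The cause of these shifts was not tested.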
